A study of Mus musculus with 6 samples.

Results

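Stress keratin 6a/16 keratinocytes are epidermal cells that carry transcripts of the keratins Krt6a, Krt6b and Krt16 while still carrying the basal keratins Krt5 and Krt14. Here they are 584 of the 21178 cells from the skin of 6 mice, or 2.76%. A cell was a member when Krt5 and Krt14 together reached at least 50 UMIs (unique molecular identifiers, each 1 captured transcript) per 10000, when Krt6a, Krt6b and Krt16 together reached at least 10, and when the suprabasal keratins Krt1 and Krt10 together stayed under 50. It also had no UMI of the hair follicle keratin Krt75, of the leukocyte gene Ptprc or of the T cell gene Cd3e, fewer than 3 of 7 hair follicle genes (Lgr5, Sfrp1, Tbx1, Id4, Shisa2, Nrep and Hmcn1), and not both of the division genes Mki67 and Top2a. In all, 3890 cells met every clause other than the one on Krt6a, Krt6b and Krt16. The 584 of them that also met that clause are called stress keratin cells below, and the rest low stress keratin cells.

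Every mouse was of the NINJA strain, a line built so that a neoantigen can be switched on by recombination, and was 6 to 12 weeks old. The labels name 3 treatments, NO_AG, AG and AG_CPI, with 2 mice each and no fuller description, and these names are used as given. All groups share 4-OH-Tam treatment of the sampled skin area, and P14 CD8 T cells were recovered from each mouse. Single-cell suspensions were made from that area and sequenced with a droplet kit that reads the 5' end of transcripts. Libraries held 1736 to 4972 cells, and each cell held 1501 to 14995 UMIs. Between 5 and 35 cell barcodes were shared by any pair of libraries. Xist, the transcript made from the inactive X chromosome, stood at 4.0 to 6.25 per 10000 in the low stress keratin cells of 5 mice and at 0.0238 in AG_CPI 1, so 1 mouse of the AG_CPI group differs from the other 5 in sex-linked transcripts.

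Krt6a and Krt6b are type II keratins that pair with the type I keratins Krt16 and Krt17. In healthy interfollicular epidermis they are scarce, and wounding or inflammation switches them on. In the hair follicle, by contrast, the companion layer and the upper follicle carry Krt6 and Krt17 without injury, and Krt79 marks the upper follicle and the sebaceous duct. Interferon gamma, which activated T cells release, changes transcription in keratinocytes. Factors that interferons activate bind GAS and ISRE elements in the promoters of genes such as Gbp2 and Bst2.

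Sequence bears on these measurements in a direct way, because keratin transcripts resemble one another. Of the 31-base words in the GENCODE M21 transcripts of Krt6a (chr15:101689910-101694307 of GRCm38, minus strand), 51.3% occurred in at least 1 other gene, 45.9% in Krt6b and 14.1% in Gm5478, with some in both. For Krt6b (chr15:101676023-101680287, minus strand) 57.0% occurred elsewhere, 50.3% in Krt6a. Of those of Krt16 (chr11:100246091-100248902, minus strand) 51.9% did, 32.2% in Gm11597 and 19.7% in Krt14, the abundant basal keratin that the rule also uses. How the submitters' counting treated reads that fit more than 1 gene is not given in the sources used here, so the split of UMIs between Krt6a and Krt6b is uncertain and their sum is safer, and how many UMIs listed for Krt16 came from Krt14 was not tested. None of the words of Klk10, Stfa3 or Cxcl10 were shared, and Cxcl9 and Gbp2 shared 0.574% and 4.85%.

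The promoters below are shown because their genes rose in AG stress keratin cells and because they hold the letters of the interferon motifs. Each is the 250 bases before the RefSeq start site (GRCm38.p6), written 5' to 3' on the strand of the gene. Capitals mark matches on either strand to the ISRE letters (GAAA, 2 bases of any kind, GAAA) or the GAS letters (TTCNNNGAA); in Bst2 the run in capitals holds 2 ISRE matches that overlap each other, and a GAS match that overlaps the first of them. They lie at chr3:142620413-142620662 (Gbp2, plus strand), chr8:71537473-71537722 (Bst2, minus strand) and chr2:157135097-157135346 (Samhd1, minus strand).
Gbp2: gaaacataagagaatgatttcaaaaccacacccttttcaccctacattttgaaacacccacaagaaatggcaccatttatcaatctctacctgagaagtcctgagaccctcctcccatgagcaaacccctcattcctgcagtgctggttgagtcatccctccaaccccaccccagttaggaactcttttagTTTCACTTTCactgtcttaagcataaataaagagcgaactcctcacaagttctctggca
Bst2: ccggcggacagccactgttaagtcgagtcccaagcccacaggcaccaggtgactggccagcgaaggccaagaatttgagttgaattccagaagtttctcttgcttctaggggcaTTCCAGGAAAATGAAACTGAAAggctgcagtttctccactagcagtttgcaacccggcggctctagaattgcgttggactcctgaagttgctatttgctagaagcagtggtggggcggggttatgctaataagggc
Samhd1: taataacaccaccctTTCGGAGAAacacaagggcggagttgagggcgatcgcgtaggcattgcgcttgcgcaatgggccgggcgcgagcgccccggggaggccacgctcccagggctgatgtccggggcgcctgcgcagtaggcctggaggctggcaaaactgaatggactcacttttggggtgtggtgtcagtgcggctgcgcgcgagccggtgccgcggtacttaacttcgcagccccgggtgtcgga
Of the 11 genes that rose in AG stress keratin cells, 8 had a promoter in the RefSeq table. Of those 8, Gbp2 and Bst2 held an ISRE match, which 2.98% of 32851 mouse promoters of the same length held, and Bst2 and Samhd1 held a GAS match, which 7.02% held. A match is a description of the letters and not a binding site.

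The stress keratin cells were unevenly spread over the mice. There were 15 and 12 in the NO_AG mice, 30 and 498 in the AG mice, and 15 and 14 in the AG_CPI mice, so that AG 2 gave 85.3% of all members and the other 5 mice gave 86 cells together. As a share of all cells that met the other clauses they made up 1.13% (95% Wilson interval 0.685 to 1.85) in NO_AG 1 and 1.52% (0.872 to 2.64) in NO_AG 2. The shares were 5.0% (3.52 to 7.05) in AG 1, 52.1% (49.0 to 55.3) in AG 2, 14.7% (9.12 to 22.9) in AG_CPI 1 and 12.2% (7.39 to 19.4) in AG_CPI 2. Both AG mice and both AG_CPI mice lay above both NO_AG mice, and AG 2 stood apart from every other mouse. The intervals cover counting error only.

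The mean share was 1.32% ± 0.277 (SD, n = 2) in NO_AG, 28.6% ± 33.3 in AG and 13.4% ± 1.79 in AG_CPI. An exact two-sided permutation test of AG against NO_AG gave p = 0.333, the smallest p that 2 mice against 2 allow, for a difference of 27.2 percentage points. The same exact permutation test of AG_CPI against AG gave p = 1.0 for a difference of -15.1 points. Without AG 2 these differences became 3.675 and 8.44 points, so the direction of the AG_CPI comparison rests on that library. Without cells that carried a T cell or macrophage UMI they became 12.28 and -0.7151 points. Nothing in the labels says whether the 2 mice of a group shared a litter or a preparation day, so every p here measures the spread between these mice.

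**Figure D1:**
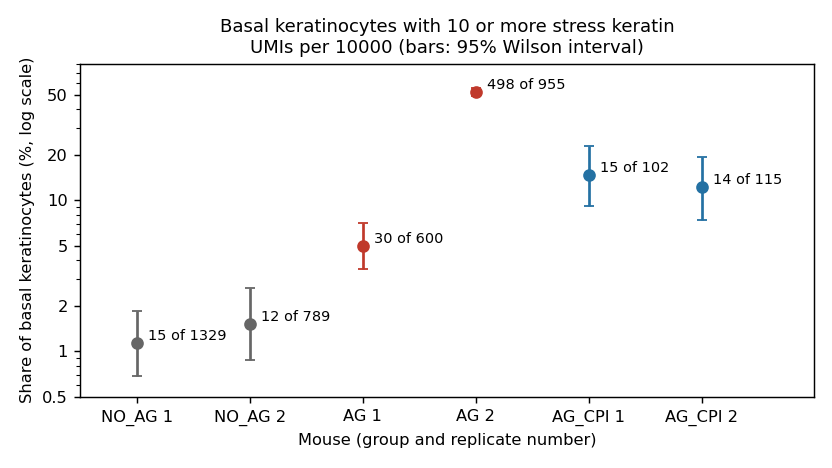
Share of stress keratin cells among all basal keratin cells that met the other clauses of the rule, in percent (y axis, log scale), for each of the 6 mice (x axis). Points are shares of cells, error bars 95% Wilson intervals, and the numbers beside them members of all cells that met the other clauses; AG 2 stands at 52.1% and the other mice lie between 1.13% and 14.7%.

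Depth differed between the cells compared. The median stress keratin cell held 4800, 2379, 5478, 2034, 2577 and 3963 UMIs in NO_AG 1, NO_AG 2, AG 1, AG 2, AG_CPI 1 and AG_CPI 2, the order used for every set of 6 values below. Low stress keratin cells held 5136, 6183, 6851, 3055, 3970 and 3754. The members were the shallower cells in 5 of the 6 mice. With every cell thinned to 1500 UMIs the shares became 1.83%, 3.2%, 5.31%, 52.8%, 17.2% and 12.9%, in the same order of mice. Mitochondrial UMIs, a sign of cell damage, had medians of 5.44%, 5.54%, 4.19%, 6.65%, 7.48% and 4.92% of the total in stress keratin cells and 3.62%, 3.56%, 3.48%, 6.23%, 4.94% and 4.24% in low stress keratin cells. They were higher in the members of all 6 mice, and so moved with the comparison of the 2 kinds of cell. The part of depth or of mitochondrial share in the results was not tested.

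Free RNA from lysed cells can give a UMI of Krt6a in a cell that does not make it. Leukocytes, which should lack these keratins, were taken as cells with a Ptprc UMI and with Krt5 and Krt14 together under 10 per 10000. Of these, 6 of 1590 cells in AG 2 (0.377%) and 1 of 1262 in AG_CPI 1 (0.0792%) reached the same 10 per 10000 of the stress keratins. In NO_AG 1, NO_AG 2, AG 1 and AG_CPI 2 no leukocyte reached it, out of 1153, 1101, 1580 and 1404; a count of 0 among so many leaves room for at most 0.26%, 0.272%, 0.19% and 0.214%. The share of members among basal keratin cells was above these leukocyte shares in every mouse. The cut on Krt5 and Krt14 had left out leukocytes with much keratinocyte RNA, so these shares may understate the background. The part of free RNA in the members was not tested.

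The values that chose the members are described without a test. A UMI of Krt6a was present in 13, 12, 24, 488, 15 and 12 of the members, one of Krt16 in 4, 3, 24, 403, 2 and 8, and one of Krt6b in 0, 0, 1, 139, 3 and 0. Krt6a and Krt16 were found together in 424 of the 584 cells, most of them in AG 2, whereas the NO_AG members were in the main Krt6a-positive cells without Krt16. The median of the 3 keratins together was 14.0, 37.0, 17.6, 31.3, 17.3 and 13.7 per 10000. The cell just inside the threshold stood at 10.06 and the one just outside at 9.872, with 31 cells between 10 and 12 and 37 between 8 and 10. Of the members, 1, 2, 1, 32, 4 and 4 rested on 2 or fewer UMIs of these keratins, while 2831 low stress keratin cells had none.

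By level, Krt6a averaged 14.8, 45, 9.6, 25.4, 24.6 and 10.6 per 10000 in the stress keratin cells. Krt16 averaged 8.5, 2.74, 10.6, 13.2, 1.23 and 5.91. Krt6a was therefore as high in NO_AG 2 as anywhere, and Krt16 was highest in both AG mice without separating them from NO_AG 1 by much. Stress keratins were not limited to basal cells in AG 2 and AG_CPI: in suprabasal cells (Krt1 and Krt10 at 50 or more) Krt16 stood at 0.322, 0.173, 3.01, 33.7, 48.8 and 9.2 per 10000. Those suprabasal cells numbered 74, 62, 83, 15, 18 and 21.

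The label was checked against genes that the rule did not use. Stfa1, a stefin of the cystatin family of protease inhibitors named with these cells as a marker, had a UMI in 1, 0, 10, 201, 7 and 3 members. Its level was 0.0756, 0, 1.27, 3.33, 6.33 and 0.629 per 10000, against 0.254, 0.158, 0.599, 1.51, 3.16 and 0.525 in low stress keratin cells. Stfa1 was thus nearly absent from the NO_AG members and followed the group more than the kind of cell. Because 43.8% of its 31-base words occur in other genes, 39.0% in BC100530, its counts carry the same uncertainty as those of Krt6a and Krt6b. The alarmin and stress list held 32 genes, of which 5 had enough UMIs to be tested. Between stress keratin and low stress keratin cells 3 of the 5 were higher, with a median of 0.139, and Krt17 passed, where 45.3% of all genes were higher, with a median of -0.0384, and 0.824% passed. Between AG and NO_AG members 2 were higher, with a median of -0.849, and Stfa3 passed, where 58.8% of all genes were higher, with a median of 0.153, and 0.412% passed. Counts over 5 genes cannot set the list apart from all genes.

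The NO_AG members also differed in follicle transcripts. Krt79 averaged 50.5, 66.3, 17.1, 16.4, 14.9 and 69.9 per 10000 in stress keratin cells and 13.7, 10.9, 45.4, 36.2, 32.6 and 43.3 in low stress keratin cells. It was therefore higher in the members than in their neighbours in both NO_AG mice and in AG_CPI 2, and lower in both AG mice and AG_CPI 1. The 12 upper follicle genes summed to 98.6 to 147 per 10000 in NO_AG members, 38.7 to 52.4 in AG members and 52.8 to 141 in AG_CPI members. The rule thus gathered cells with more of the upper follicle list in both NO_AG mice than in either AG mouse, and stress keratin cell is used here as a name for the rule and not for 1 cell state.

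Within each mouse, the stress keratin cells differed from the low stress keratin cells of the same skin by a short list of genes. Of 2670 genes tested outside the rule, 22 passed (0.824%), 17 higher and 5 lower (0.637% and 0.187%), by limma with Benjamini-Hochberg adjustment over all genes tested and an adjusted p below 0.05. The median difference of all genes was -0.0384 on the log2 scale. Genes had to have enough UMIs in the stress keratin cells to be tested, which favours genes that are high there. With that filter read over both kinds of cell 8163 genes were tested and 65 passed, 26 higher and 39 lower, and with the stress keratin threshold at 5 the calls were 45 higher and 106 lower; the 22 genes were among the calls in both. The balance of higher and lower calls therefore rests on these choices. Of the 24 listed differentiation genes 12 were tested, 11 were higher and 6 passed, with a median of 0.963, and none passed as lower. With the filter over both kinds of cell 18 of them were tested, 15 were higher and 7 passed, with a median of 0.439 beside -0.159 for all genes. Scaling over all genes detected put the median of all genes at -0.233 and split the calls as 6 higher and 9 lower, with 10 of the 12 differentiation genes still higher (median 0.737). Differences are on the log2(value + 0.1) scale, which understates the change of scarce genes.

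Klk10, a kallikrein protease of the upper epidermis (chr7:43781035-43785410, plus strand), averaged 2.39, 2.08, 3.7, 0.621, 0.452 and 1.28 per 10000 in stress keratin cells. In low stress keratin cells it averaged 0.0955, 0.128, 0.222, 0.149, 0.0723 and 0.0589. Every value of the first kind lay above every value of the second. The difference was 2.80 log2 units (SE 0.37), with an adjusted p of 0.00864 by limma. In suprabasal cells Klk10 stood at 0.086, 0.0908, 0.109, 0.127, 0.659 and 0.507, under the members in the NO_AG and AG mice and AG_CPI 2 and over them in AG_CPI 1.

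Sbsn (suprabasin), Krtdap, Lypd3, Ly6g6c and Dmkn (dermokine), all made as keratinocytes leave the basal layer, rose with it. Sbsn averaged 10.5, 29.2, 16.6, 5.2, 5.01 and 8.57 in stress keratin cells and 2.39, 2.43, 3.39, 3.58, 1.69 and 2.74 in low stress keratin cells, a difference of 1.91 (SE 0.292, adjusted p 0.013). The members were higher in each of the 6 mice, by least in AG 2. Ly6g6c differed by 1.89 (adjusted p 0.00864), Lypd3 by 1.52 (0.00864), Krtdap by 1.47 (0.0248) and Dmkn by 0.74 (0.03) in the same limma fit. Lypd3 averaged 3.31, 5.65, 2.17, 2.89, 3.23 and 2.78 against 0.942, 1.14, 1.31, 1.2, 0.793 and 0.899, again with no overlap. Krtdap was nearly equal in AG 1, at 12.3 against 12.1, and in suprabasal cells it was higher still, at 38.9 to 83.2.

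Krt17, the type I keratin that accompanies Krt6 in follicle and wound epithelium, averaged 99.1, 130, 65.2, 32.6, 46.5 and 73.6 in stress keratin cells and 11.8, 14.3, 35.2, 23, 9.92 and 13.7 in low stress keratin cells. It was higher in the members of every mouse, with the narrowest gap in the AG mice, and the only overlap between the kinds was the members of AG 2 with the low stress keratin cells of AG 1. The difference was 2.03 log2 units (SE 0.306, adjusted p 0.013, limma). Of its words, 15.8% are shared with other genes, so some UMIs may have come from other keratins.

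Outside these lists, the members were higher in the redox genes Gpx2 (1.71, adjusted p 0.03) and Txn1 (0.89, adjusted p 0.013), glutathione peroxidase and thioredoxin, in the limma fit. Tpm1 (tropomyosin, 1.61, adjusted p 0.0481), Ggct (1.38, 0.0323), Tagln2 (0.85, 0.03), Sfn (the 14-3-3 protein stratifin, 0.88, 0.0356) and Dynll1 (0.73, 0.0248) also passed, as did Dsp (0.70, 0.03), the desmosomal protein desmoplakin. Fabp5, a fatty acid binding protein of differentiating epidermis, averaged 14.3, 23.3, 5.89, 82.2, 66.2 and 49.4 against 3.7, 7.01, 6.96, 26.0, 9.9 and 32.2. It was higher in 5 of the 6 mice, the exception being AG 1, with a difference of 1.39 (adjusted p 0.0481).

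The 5 genes that fell in the members were Gstm1, Fst, Jun, Nsa2 and Apoc1. Gstm1, a glutathione transferase, averaged 0.37, 0.718, 0.76, 0.211, 0.0562 and 0.281 in stress keratin cells and 2.11, 1.7, 1.63, 0.653, 0.391 and 0.936 in low stress keratin cells, a difference of -1.47 (adjusted p 0.03, limma). Jun, an AP-1 transcription factor induced by stress and by tissue dissociation, averaged 3.52, 1.27, 1.92, 1.11, 1.1 and 1.15 against 5.96, 5.34, 3.42, 1.88, 2.82 and 2.56, a difference of -1.12 (adjusted p 0.03). Both were lower in the members of every mouse, although the ranges of the 2 kinds overlap across mice. Fst (follistatin, an inhibitor of activin) differed by -1.19 (0.0356), Nsa2 by -0.83 (0.03) and Apoc1 by -0.77 (0.03). Of the 10 immediate early genes tested, 7 were lower and Jun alone passed.

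**Figure D2:**
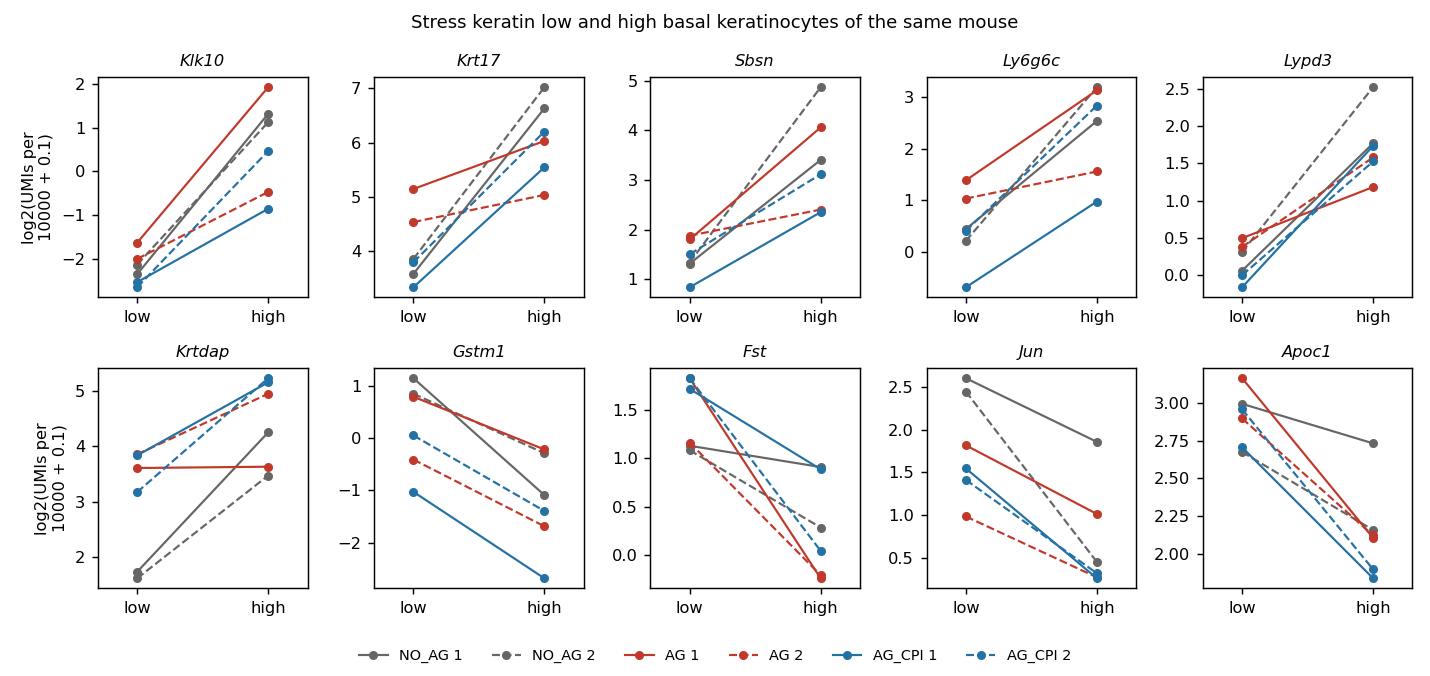
Mean UMIs per 10000 of 10 genes that passed the test (1 panel each, y axis on a log2(value + 0.1) scale) in low stress keratin (low) and stress keratin (high) cells (x axis); each line joins the 2 kinds of cell of 1 mouse. The lines of Klk10 and Lypd3 rise in all 6 mice with no overlap, and those of Jun and Gstm1 fall in all 6.

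Of 11 tested adhesion genes of the basal layer none passed (1 of 13 with the filter over both kinds of cell) and 8 were lower, with a median of -0.139. The most different was Krt15, a keratin of resting basal and bulge cells, at 73.2, 18.9, 12.1, 3.66, 0.418 and 5.36 against 72.9, 78.8, 26.8, 9.56, 21.8 and 15.7 per 10000 (log2 difference -1.93, adjusted p 0.0954 by limma). The members were lower in 5 mice and level in NO_AG 1. Interferon genes also lay on both sides: of 14 tested interferon gamma response genes 6 were higher in the members (8 with a pseudocount of 0.5), and of 16 type I interferon genes 5 were (10 with that pseudocount), with none passing. Without NO_AG 1 none of the 22 calls remained, without AG_CPI 2 none of the same 22 did (1 other gene passed), and without AG_CPI 1 only Klk10, Ly6g6c and Lypd3 did, while without AG 2 12 of 19 with a value remained. Without cells holding follicle markers the 2 AG mice alone had enough members, and there 3 of 17 calls with a value remained (Fabp5, Ggct and Sfn), Krt17, Sbsn, Krtdap and Lypd3 not among them. The stress keratin threshold itself sorted these cells, so the p-values describe how steady a difference was over mice and not an independent finding of a cell type.

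AG 2 held enough cells to follow the genes along the stress keratin level, as a description with no test. Its basal keratin cells were taken in bands of 0, under 10, 10 to 20, 20 to 50 and 50 or more per 10000 of the 3 keratins, with 294, 163, 115, 270 and 113 cells. Krtdap averaged 13.9, 15.3, 21.5, 26.4 and 51.0 per 10000 over these bands, and Krt17 22.4, 24.1, 27.2, 26.9 and 51.9. Krtdap was thus higher at every step, while Krt17 was nearly flat up to the last band. Sprr1b, a cornified envelope precursor, went from 0.0568, 0.171, 0.337 and 0.824 to 5.13 in the top band. Lypd3 was 1.18, 1.23, 2.52, 2.12 and 5.1.

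Other genes ran the opposite way. Fst averaged 2.55, 1.4, 1.11, 0.823 and 0.288 over the same 5 bands, and Krt15 10.7, 7.59, 5.91, 3.59 and 1.55. Both were lower at each step. Krt79 went from 41.2 through 27.3, 18.8 and 12.3 and back to 23.7 in the top band. Interferon genes differed among themselves: Isg15, a ubiquitin-like protein, was 6.46, 6.92, 6.32, 5.88 and 9.39, level up to the top band. Cxcl9, a ligand that draws T cells through the receptor Cxcr3, was 2.13, 3.68, 6.06, 5.73 and 5.91, and Gbp2 was 1.39, 2.13, 4.15, 3.58 and 3.62. Both were higher up to the band of 10 to 20 and about level from there. The median cell of the 5 bands held 2914, 3149, 1789, 2030 and 2327 UMIs, so a band's cells were on average shallower from 10 upward, and the part of depth in these slopes was not tested.

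**Figure D3:**
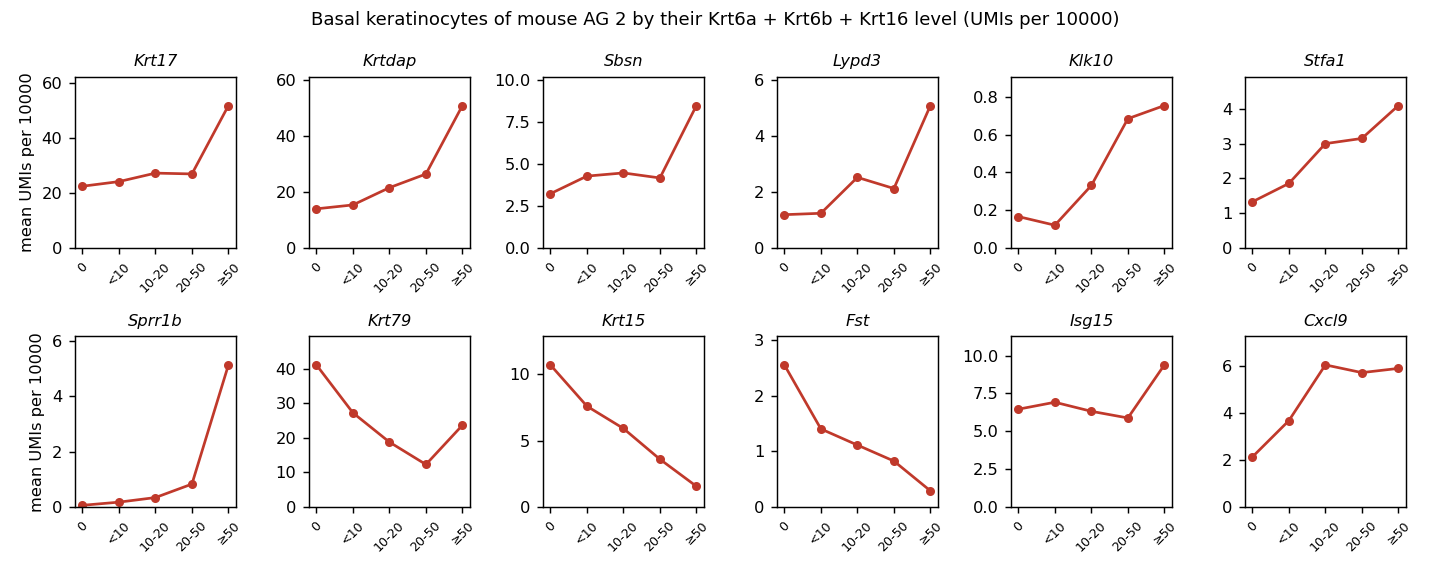
Mean UMIs per 10000 (y axis) of 12 genes (1 panel each) in the basal keratin cells of AG 2, by the summed level of Krt6a, Krt6b and Krt16 per 10000 (x axis, 5 bands). Krtdap rises from 13.9 to 51.0 and Fst falls from 2.55 to 0.288 over the bands, and all points come from 1 mouse.

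The comparison of AG with NO_AG asks how cells chosen by the same rule differed between skin labelled AG and skin labelled NO_AG. In the stress keratin cells 11 of 2670 genes passed, 0.412%, and all 11 were higher in AG (limma, Benjamini-Hochberg adjusted p below 0.05). Of these, 4 were on the type I interferon list (Ifitm3, Ifi27l2a, Bst2 and Rtp4), Cxcl9 and Gbp2 on the interferon gamma list, H2-Aa on the class II list, Stfa3 on the alarmin and stress list and Ube2c, a ubiquitin-conjugating enzyme of mitosis, on the cell cycle list. Samhd1 and Ly6e were on none. The filter on low values bears on this count: 1432 of the 2670 genes (53.6%) met it in the AG mice and in no other mouse, and 66.2% of those were higher in AG, with a median of 0.318. Bst2, Rtp4, Samhd1 and Ube2c are 4 of them, and 9 of the 11 met the filter in no NO_AG mouse, so that all 11 were higher supports nothing by itself. Cxcl9, Ifi27l2a, Ifitm3, Ly6e and Stfa3 would have met it without the AG mice. None passed as lower, and the median difference of all genes was 0.153 on the log2 scale, with 58.8% of genes higher in AG. Scaling over all genes detected moved that median to 0.486 and the calls to 23, all higher, the 11 among them.

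Cxcl9 (chr5:92321347-92328079, minus strand) was listed at 0 in the members of both NO_AG mice and averaged 28.4 and 5.84 per 10000 in the AG mice and 2.54 and 3.26 in the AG_CPI mice. All 4 AG and AG_CPI mice lay above both NO_AG mice, with AG 1 highest. Against the limit that 3 counts set over all 114023 UMIs of the NO_AG members, 0.263 per 10000, the AG mean was at least 65.0-fold higher. That limit pools the cells of NO_AG 1 (75893 UMIs) and NO_AG 2 (38130 UMIs), and the limit of either mouse alone is higher. Every fold set against such a limit here covers counting error over the pooled cells and not the spread between mice. The fitted difference was 7.06 (SE 0.676, adjusted p 0.000874). In low stress keratin cells Cxcl9 stood at 0.196, 0.469, 3.46, 2.68, 2.37 and 2.89, with the same order of NO_AG below the other groups.

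Gbp2, an interferon-induced guanylate-binding protein (chr3:142620602-142638008, plus strand) whose promoter is printed above, was at 0 in both NO_AG mice and at 12.6, 3.72, 1.45 and 1.72 in the others. The AG mean was at least 31.1-fold above the NO_AG limit, with a fitted difference of 6.16 (adjusted p 0.00151, limma). Again AG 1 was highest and the groups did not overlap.

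Among genes that act on viruses or nucleic acids, Ifitm3 averaged 4.89, 1.48, 37.9, 24.8, 15.3 and 12.3, a difference of 3.49 between AG and NO_AG (SE 0.481, adjusted p 0.00844, limma). It was abundant enough to be read in every mouse, and both NO_AG mice lay below the other 4. Of its words, 20.5% are shared with other genes. Bst2 (tetherin) averaged 0, 0.453, 5.14, 3.99, 0.625 and 0.864 (4.32, adjusted p 0.0461). Samhd1, which breaks down nucleotides, averaged 0, 0, 2.78, 1.94, 0.773 and 0.625, in AG at least 8.97-fold above the limit (4.63, adjusted p 0.0144). In both genes the AG mice were highest and AG_CPI mice lay between them and NO_AG.

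Ifi27l2a averaged 1.07, 0, 24.3, 11, 6.8 and 11 (5.65, adjusted p 0.0144 by limma), Ly6e 3.3, 1.11, 13.6, 10.4, 8.84 and 7.94 (2.60, adjusted p 0.0398) and Rtp4 0, 0, 1.56, 1.2, 0.951 and 0.952 (3.91, adjusted p 0.0492, at least 5.25-fold above the limit). In each of these 3 genes NO_AG stood below every other mouse. Of the 16 tested type I interferon genes all were higher in AG and 4 passed, with a median of 3.42 (2.39 with genes at 0 in NO_AG set to their bound). Of the 14 tested interferon gamma response genes all were higher and Cxcl9 and Gbp2 passed, with a median of 2.94 (2.29 with bounds). Isg15, at 0.0646, 0.741, 8.41, 6.78, 0.569 and 3.88, did not pass (4.39, adjusted p 0.0697). Of these, 13 type I and 11 interferon gamma response genes met the filter on low values in the AG mice alone, so the counts and medians of both lists describe the genes tested and support nothing. Without AG 1 or AG 2 only 3 genes of each interferon list were tested, all higher. Summed over its genes, the type I list stood at 4.15 to 6.46 in NO_AG members and 58.6 to 91.6 in AG members. In low stress keratin cells the sums were 11.1 to 14.8 and 59.4 to 61.4. In suprabasal cells they were 5.36 to 7.95 and 44.5 to 48.5. The list was therefore higher in AG in each kind of cell and not in the members alone. For 15 of the 16 genes the AG effect was larger in the members than in low stress keratin cells, with none passing by limma.

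Antigen presentation genes stood higher as well, mostly short of the threshold. All 17 tested genes of the class I pathway were higher in AG with a median of 1.10, and none passed by limma, where 58.8% of all genes were higher. Of the 17, 5 met the filter on low values in the AG mice alone and 8 in no NO_AG mouse, so the count of 17 supports nothing. The 9 that would have met it without the AG mice were all higher, with a median of 1.14. Of all genes of that kind 53.6% were higher. Without AG 1 all 12 that could be tested were higher (median 0.802), and without AG 2 all 12 were too (median 1.41). B2m, the light chain of class I molecules, averaged 11.7, 12.8, 32.2, 21.8, 20.9 and 22.6 (1.14, adjusted p 0.27), and Psmb8, an immunoproteasome subunit, 1.98, 0.745, 8.85, 5.18, 3.78 and 3.96 (2.41, adjusted p 0.0697). Both NO_AG mice were lowest in each. Of 5 class II genes none met the filter in a NO_AG mouse, so their all being higher supports nothing. H2-Aa passed, at 0, 0, 4.5, 4.64, 0.445 and 2.15 per 10000 (5.58, adjusted p 0.00844; at least 17.4-fold above the NO_AG limit). Leukocytes held H2-Aa at 28.6, 20.5, 18.2, 41.3, 23.9 and 19.3 and low stress keratin cells at 0.946, 1.03, 1.04, 5.46, 1.57 and 3.7; the part of leukocyte RNA in this gene was not tested.

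Stfa3, another stefin (chr16:36450537-36455392, minus strand), averaged 0.227, 0, 80.1, 6.18, 29.2 and 6.89 in the members, with AG 1 and AG_CPI 1 far above the rest and both NO_AG mice below all others. The difference between AG and NO_AG was 7.01 (SE 1.01, adjusted p 0.0106, limma). Ube2c averaged 0, 0, 1.42, 1.99, 0.59 and 0.425 (4.19, adjusted p 0.0464; at least 6.5-fold above the limit), although cells with both Mki67 and Top2a had been left out. It met the filter in the AG mice alone and had no value once either of them was left out. Of 9 tested cell cycle genes 6 were higher and Ube2c alone passed.

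**Figure D4:**
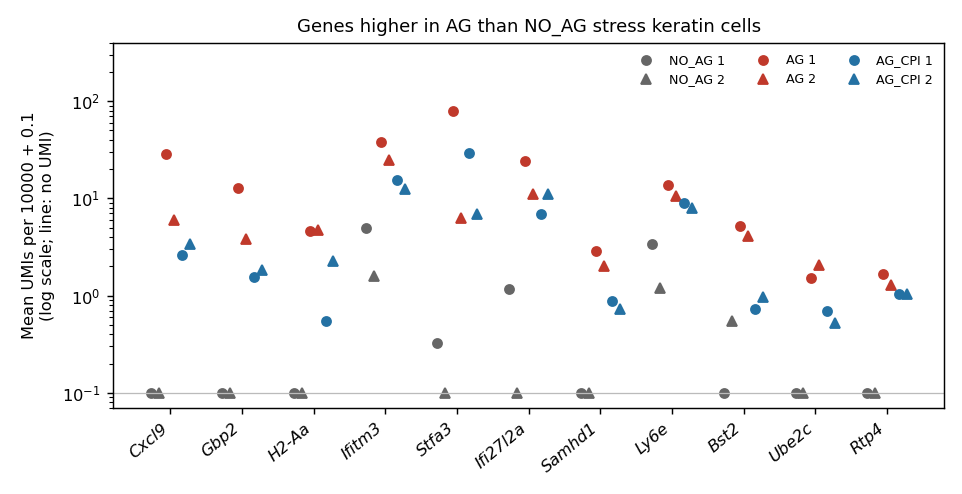
Mean UMIs per 10000 in stress keratin cells of each mouse (points, y axis, log scale of the value + 0.1) for the 11 genes that passed between AG and NO_AG (x axis), with colour for the group and symbol for the mouse; the line marks no UMI. Both NO_AG mice lie at 0 in Cxcl9, Gbp2, Samhd1 and Rtp4, and AG 1 is the highest mouse in Cxcl9 at 28.4.

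Lower in AG, without passing, were Sox9 (-1.86, adjusted p 0.133), Nfib (-1.76, adjusted p 0.0896) and Cald1 (-2.53, adjusted p 0.149) in the limma fit. Sox9, a transcription factor of the hair follicle, averaged 3.77, 5.62, 1.18, 1.15, 2.6 and 4.0, with both AG mice lowest. Of 8 upper follicle genes 7 were lower, with a median of -0.956, and of 10 immediate early genes 9 were, with a median of -0.589. All 14 glycolysis genes tested were higher, with a median of 0.898 and none passing. Of these 14, Slc2a1, Hk1, Pfkl and Hif1a met the filter in the AG mice alone. The 9 that would have met it without the AG mice had a median of 1.05, and 7 of 10 were higher without AG 1 and 9 of 10 without AG 2. Ldha, lactate dehydrogenase, averaged 4.47, 3.99, 11.5, 9.39, 9.81 and 4.74 (1.32, adjusted p 0.257). Differentiation genes were split, 6 up and 6 down.

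Transcripts of other cell types differed between mice and are given here beside the results. T cell markers summed to 0 to 0.336 per 10000 in NO_AG members, with at most 1 of 14 detected, to 0.585 to 14.4 in AG and to 1.29 to 9.01 in AG_CPI. Macrophage and monocyte markers summed to 0 to 0.0646, 0.206 to 7.8 and 0 to 3.33, and in AG 2 all 14 and all 10 markers of the lists were found. In low stress keratin cells these macrophage and monocyte markers summed to 0.416 to 0.443 in NO_AG and 0.141 to 8.16 in AG, so they did not follow the group. The members of AG 2 held 1321361 UMIs, those of NO_AG 1 and NO_AG 2 75893 and 38130. The numbers of markers found are therefore not comparable between these mice. Ccl5, a chemokine made by T cells, averaged 7.58 in the members of AG 2 and 6.04 in its low stress keratin cells. Langerhans cell markers summed to at most 0.239, 0.711 and 0.78 in the 3 groups. When cells with any T cell or macrophage UMI were left out (52 of 498 members remained in AG 2), 18 genes passed, 15 higher and 3 lower in AG, and 9 of the 11 were among them; Rtp4 did not pass and Ube2c had no value. That fit held both AG and both NO_AG mice but 1 AG_CPI mouse.

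Most calls were lost or could not be tested when any 1 mouse was left out, while the differences stayed large. Without AG 2, as without AG 1, only 7 of the 11 genes had a value. Without AG 1 none of the 11 passed in limma (7 had a value), without AG 2 5 did (Cxcl9, Gbp2, Ifi27l2a, Ifitm3 and Stfa3), and without 1 of the other 4 mice between 3 and 5 did, 4 for either AG_CPI mouse, which enter only the estimate of the spread. Over these fits the log2 difference ran from 5.908 to 8.17 for Cxcl9, from 5.27 to 7.008 for Gbp2, from 5.541 to 5.584 for H2-Aa and from 2.657 to 4.212 for Ifitm3. Limma-voom on summed UMIs called Ifitm3 alone, and with no filter on low values none passed among 12709 genes (1084 at an unadjusted p under 0.05).

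The comparison of AG_CPI with AG shares the AG mice with the one above. No gene of 2670 passed (0%), with 112 at an unadjusted p under 0.05 by limma and 83 by limma-voom, which also called none. The median difference was -0.202 and 35.5% of genes were higher in AG_CPI. The largest difference was in Cxcl10, a ligand of Cxcr3 like Cxcl9, at 0.556, 0, 13.7, 3.63, 0 and 0 per 10000. It was found in both AG mice and in neither AG_CPI mouse, whose limit of 3 counts lies at 0.283, so AG was at least 30.7-fold higher; the fitted difference of -6.20 had an adjusted p of 0.133.

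The named lists were mostly lower in AG_CPI, with no gene passing. Most interferon genes met the filter on low values through the AG mice alone, which favours genes that are high in AG, so these counts support nothing. With AG 1 left out, and likewise with AG 2 left out, 3 genes of each interferon list were tested. None of 14 interferon gamma response genes was higher (median -2.13, or -2.08 with bounds), 1 of 16 type I interferon genes was (median -1.03), and none of 17 class I genes was (median -0.745; -0.208 without AG 1, with 2 of 12 higher). None of 5 class II genes was higher, at a median of -2.14 (-0.775 without AG_CPI 1). Upper follicle genes leaned the other way, 6 of 8 higher with a median of 0.744. Of single genes Hnrnpul1 (-2.97) was lower, and Dsg1a (1.91), Sox9 (1.32) and Idi1 (2.41) higher, each at an adjusted p of 0.992 in limma. AG_CPI had 15 and 14 members. When cells with a T cell or macrophage UMI were left out, 5 genes passed, all lower, but AG_CPI 2 then had 5 members and dropped out, so AG_CPI 1 alone stood for its group.

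Set against NO_AG, the AG_CPI members had 1 gene that passed (0.0375%), Cxcl9, at least 11-fold above the NO_AG limit (4.86, adjusted p 0.0373, limma). Both AG_CPI mice were above both NO_AG mice. Stfa3 (6.29) and Gbp2 (4.04) did not pass, each at an adjusted p of 0.0596. Lower, without passing, were Cxcl14 (-4.12, adjusted p 0.0869), Cyb5r3 (-2.67, 0.0869) and Cald1 (-3.27, 0.0908). Of the 16 type I interferon genes tested all were higher, with a median of 2.12 (1.75 with 7 genes at their bound). As 15 of the 16 met the filter on low values in no NO_AG mouse, and the 7 at 0 there could not be lower in AG_CPI, this count supports nothing. Of the 14 interferon gamma response genes 8 were higher and 6 lower, with a median of 0.625 (0.0 with 8 genes at their bound). The Cxcl9 call was lost when any 1 NO_AG or AG_CPI mouse was left out, and with limma-voom, which called none (109 genes at an unadjusted p under 0.05).

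Whether the AG effect differed between stress keratin and low stress keratin cells was tested directly as an interaction. Of 2670 genes 6 passed (0.225%), 3 with a more positive and 3 with a more negative AG effect in the members (0.112% each), where all genes had a median of 0.224 and 61.5% were more positive. That split depends on the processing: scaling over all genes detected moved the median to 0.468 and called Gbp2 and Stfa3 alone, both more positive, while thinning to 1500 UMIs called 1 more positive and 7 more negative. Gbp2 (4.46, SE 0.598, adjusted p 0.0221), Stfa3 (5.0, SE 0.685, 0.0221) and Cxcl9 (4.12, SE 0.655, 0.0392) had the larger rise in the members by limma. Krt79 (-3.45, SE 0.509, 0.0317), Krt17 (-2.36, SE 0.271, 0.0138) and the microsomal glutathione transferase Mgst1 (-2.52, SE 0.389, 0.0361) had the lower AG effect there.

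By mouse, the log2 difference of members from low stress keratin cells in Krt17 was 3.06, 3.18, 0.886, 0.503, 2.22 and 2.42. It was positive in every mouse and smallest in the 2 AG mice. For Krt79 it was 1.88, 2.59, -1.41, -1.14, -1.12 and 0.688, so its sign turned between NO_AG and AG. Mgst1 turned in the same way, at 1.12, 1.7, -1.6, -0.743, 0.101 and -0.447.

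For Cxcl9 the same difference was -1.57, -2.51, 3.0, 1.09, 0.097 and 0.171, for Gbp2 -2.64, -2.64, 2.45, 1.13, 0.0657 and 0.409, and for Stfa3 -2.94, -4.77, 2.1, 0.0955, 0.257 and -0.126. All 3 were lower in the members of NO_AG and higher in those of AG. For Cxcl9 and Gbp2 the NO_AG members were at 0, with a limit of 0.263 against 0.196 to 0.524 in low stress keratin cells, so their NO_AG difference was at the limit of depth and its fitted size depends on the pseudocount. Without NO_AG 1 or without NO_AG 2 none of the 6 passed, and limma-voom called 6 genes, all with a lower AG effect in the members, Krt17 and Mgst1 among them. The AG_CPI effect against AG showed no gene that passed (0%; 117 at an unadjusted p under 0.05 by limma, 79 by limma-voom, which called none); Krt17 stood at 1.55 and Cxcl10 at -6.42, each with an adjusted p of 0.408.

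**Figure D5:**
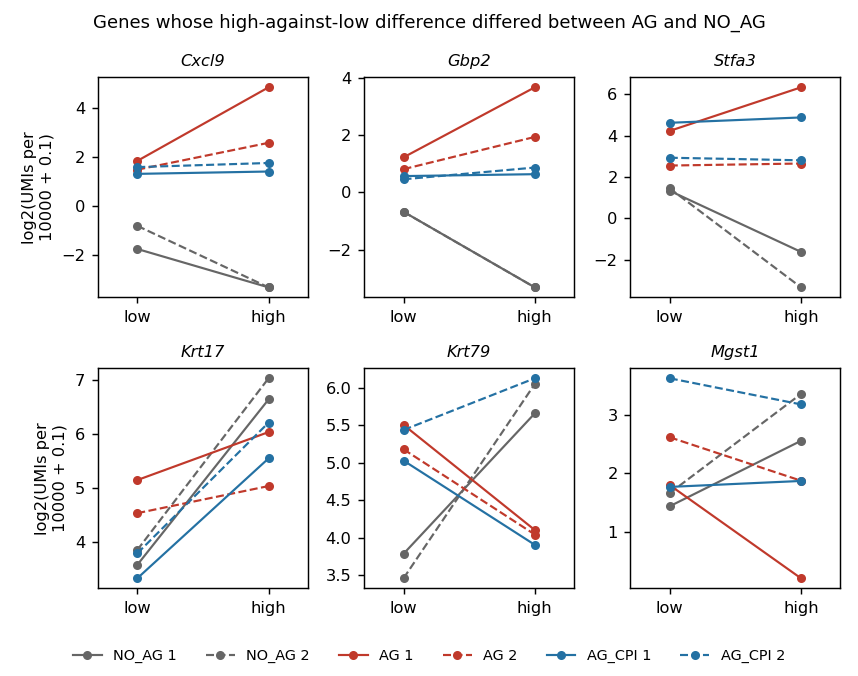
Mean UMIs per 10000 (y axis, log2(value + 0.1) scale) of the 6 genes whose AG effect differed between kinds of cell (1 panel each), in low stress keratin (low) and stress keratin (high) cells (x axis), with 1 line for each of the 6 mice. The lines of Krt79 rise in both NO_AG mice and fall in both AG mice, and those of Krt17 are flattest in AG 1 and AG 2.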

How the data were processed

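Single-cell RNA was measured in 6 skin libraries. Reads were aligned to mm10 with Cell Ranger 3.1, per the submitters' processing notes. The authors deposited log10(1 + UMIs per 10000) per gene and cell; values above 0 came out as whole UMIs (within 0.05 UMI) in 100% of cases read as log10. The deposited genes held 95.4% to 96.7% of each cell's UMIs. Members and gene lists were chosen with earlier results of these data known.

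For each mouse and kind of cell, UMIs per 10000 were averaged over cells, scaled by trimmed mean of M values over genes with at least 10 UMIs in every column, and put on log2 with a pseudocount of 0.1. A gene entered the fit if 2 mice or more had 10 UMIs or more of it, and a mean of 0.1 or more, in their stress keratin cells. limma 3.58.1 (R 4.3.3) fitted all groups together without a block, with Benjamini-Hochberg adjustment over 2670 genes and a threshold of 0.05. The contrast of kinds was taken within mouse. The main fit used these log2 means and no count model, and limma-voom on summed UMIs was run as an alternative.

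The genes used for scaling, and reading the gene filter in stress keratin cells, were settled after a first fit had been seen, because simulated data showed many false calls under the first version. On 5 simulated draws with 200 changed genes, 0.562% (AG against NO_AG) and 5.18% (kinds of cell, 2800 genes in the last draw) of calls were false, and 21.4% with the filter over both kinds. Of the changed genes 35.4% and 76.9% were recovered. The draws were Poisson counts around a mean shared by all mice, with a small spread between mice. Genes such as Cxcl9 (28.4 and 5.84 in the AG members) spread more than that, so these rates may not carry over to the data. Both first versions are alternatives.

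Between groups, the named genes were the called ones with the smallest p whose mice did not overlap between groups, up to 10 in each direction, or the 3 with the smallest p where fewer than 3 were called; between kinds of cell, up to 12 in each direction by size among those with 1 direction in all 6 mice. List members could be named too; Dsp, Fabp5 and Dynll1 fall outside the rule and were named after their values were seen. Some genes that the rule allows are not reported here. Scrublet doublets (scanpy 1.11.5) were kept, and removed in an alternative.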

Additional observations from a re-analysis of the deposited data

Results flagged for a closer look

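The 6 results below stood out because the AG effect differed between kinds of cell by a direct test (limma interaction term, Benjamini-Hochberg adjusted over 2670 genes). Gbp2 had an AG effect 4.46 log2 units larger in stress keratin than in low stress keratin cells. For Stfa3 the gap was 5.0 and for Cxcl9 it was 4.12. Gbp2 and Cxcl9 had no UMI in the NO_AG members and Stfa3 had 3, so the sizes of these 3 gaps depend on the pseudocount and are not measured. Krt79 had an AG effect 3.45 units lower in stress keratin cells (-3.45), Mgst1 one of -2.52 and Krt17 one of -2.36. Across the 19 alternatives Krt79 passed in 14, Krt17 in 12, Gbp2 in 10, Stfa3 and Mgst1 in 9 each and Cxcl9 in 7.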

How the results depend on the processing

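Counts of genes past the threshold depended on the processing, while every gene followed through the alternatives kept its sign wherever it had a value. Krt15, Isg15, B2m, Psmb8, Ldha, Tnc and Gjb2, named above or below with a fit, were not followed in this way. AG against NO_AG (11 genes) gave 0 with no filter on low values, 1 with limma-voom, 1 thinned to 1500 UMIs, 7 with doublets removed, 18 without cells holding T cell or macrophage UMIs, 7 when only the groups compared were fitted and 23 with scaling over all genes detected. AG_CPI against AG (0 genes) gave 1 with a pseudocount of 0.5 and 5 without T cell or macrophage UMIs. AG_CPI against NO_AG (1 gene) gave 0 with a pseudocount of 0.5, no filter, limma-voom, thinning or a gate at 5, 3 with the deposited scaling only, 3 with scaling over all genes and 11 (8 lower) without T cell or macrophage UMIs. That last setting left AG_CPI 1 as the only mouse of its group in every comparison, so cells and mice changed together. Stress keratin against low stress keratin cells (22 genes) gave 0 with no filter, 303 with limma-voom (184 higher), 46 thinned, 151 with a gate at 5 (45 higher), 55 without T cell or macrophage UMIs, 65 (26 higher) with the gene filter over both kinds of cell, and 58, 145 and 36 within NO_AG, AG and AG_CPI alone. It gave 51 with a gate at 20 and 12 without cells holding follicle markers, both fitted on the 2 AG mice alone, with 6 of 19 and 3 of 17 of the original calls remaining. The difference in AG effect between kinds (6 genes) gave 0 with no filter, 11 with a gate at 5, 1 with only the groups compared and 2 (both more positive) with scaling over all genes. The difference in AG_CPI effect (0 genes) gave 1 with a gate at 5 and 1 with only the groups compared. For all of these the cause was not tested.

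Leaving out 1 mouse at a time gave 0 to 5 genes when AG was set against NO_AG, 0 to 1 for AG_CPI against AG, 0 to 6 for AG_CPI against NO_AG, 0 to 67 for the kinds of cell, and 0 to 13 and 0 to 1 for the 2 differences in effect. The share differences ran from 3.675 to 50.82 points (AG against NO_AG) and from -38.71 to 8.44 (AG_CPI against AG), the last reversed without AG 2. Where a group was left with 1 mouse, that mouse was assumed to vary like the others.

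The deviations of mice with the same replicate number were nearly uncorrelated (r = 0.0495, 0.0363 and -0.00127 between pairs of groups). Most mice gave few members, and counting noise in so few cells draws r towards no correlation. This check therefore cannot decide whether the replicate numbers are a pairing. A fit with the replicate block gave 25 genes when AG was set against NO_AG, 1 for AG_CPI against AG, 15 for AG_CPI against NO_AG, 13 for the difference in AG effect and 1 for that in AG_CPI effect.

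Between groups, no fit could be made with a gate at 20 or without cells holding follicle markers, which left too few cells. The scaling over all genes and the filter over both kinds of cell were chosen after seeing the data. With 12 to 30 members in 5 of the 6 mice, a gene with no UMI in NO_AG could still stand at up to 0.263 per 10000 over the pooled members of both mice. In either NO_AG mouse alone it could stand higher.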

Other observations

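Stress and alarmin genes other than the keratins did not share 1 pattern over the mice. Sprr1b, a cornified envelope precursor, averaged 0, 0, 0.087, 1.69, 0 and 1.28 UMIs per 10000 in the members of NO_AG 1, NO_AG 2, AG 1, AG 2, AG_CPI 1 and AG_CPI 2. Tslp, a cytokine that keratinocytes release on injury, averaged 0, 0, 0.0657, 1.01, 0 and 0.142. Neither met the filter on low values. Sprr1a was present in 5 mice without following the groups, at 12.6, 3.89, 4.64, 3.03, 0 and 18.0. Serpinb2, a protease inhibitor, was highest in AG_CPI 1, at 1.98, 1.31, 1.03, 0.561, 5.39 and 0.

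Hair follicle structural genes also appeared in AG 2. Tchh (trichohyalin, of the inner root sheath) averaged 0.604, 0.366, 0.0956, 5.28, 1.02 and 0 in the members, and 4.65 in the low stress keratin cells of AG 2. Krt71, an inner root sheath keratin, averaged 1.81 in the members of AG 2 and 1.34 in its low stress keratin cells, so both genes were about as high in either kind of cell of that mouse.

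Genes of wound migration and growth factor signalling were sparse. Tnc, the matrix protein tenascin C, averaged 0, 0, 2.07, 0.526, 0.594 and 0, and Gjb2, the gap junction protein connexin 26, 0.126, 0, 1.32, 0.807, 0 and 0.851. Neither passed between AG and NO_AG by limma (adjusted p 0.287 and 0.421). The hyaluronan receptor Cd44 averaged 4.49, 3.09, 3.55, 2.47, 4.98 and 1.9, with overlapping groups. Cst6, a cystatin of the follicle and cornifying epidermis, averaged 67.2, 13.5, 92.7, 15.4, 6.64 and 53.2, in which 1 mouse of each group was several-fold above its partner.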
